A study of Mus musculus with 14 samples.

Results

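Mitochondrial carriers are small proteins of the inner mitochondrial membrane that let metabolites cross it, each exchanging or importing a narrow set of substrates such as ATP, phosphate, citrate, amino acids or coenzymes. Most are encoded by the Slc25a genes, and the uncoupling proteins Ucp1, Ucp2 and Ucp3 belong to the same family. Members of the family feed oxidative phosphorylation, and in liver they also feed urea synthesis, gluconeogenesis and the export of citrate for lipid synthesis. The members were taken by symbol, as every gene named Slc25a with a number or Ucp1 to Ucp3 in the liver table, and were joined to the fibroblast table by gene ID. The rule found 50 of 54532 genes, 47 of them Slc25a genes and 3 of them uncoupling proteins, and it used no measured value.

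Expression was measured by RNA-seq in immortalized mouse embryonic fibroblasts (iMEFs) and in whole mouse livers, with and without loss of the telomere protein TRF2 (gene *Terf2*). The 3 control and the 3 senescent iMEF libraries had the genotype Trf2F/F;Rosa-CreER, were immortalized with SV40 large T antigen, and received vehicle or 4-hydroxytamoxifen (4HT), with day 7 given for the senescent cells. No iMEF library received 4HT without TRF2 loss, so TRF2 loss, 4HT and active Cre cannot be told apart in these cells. The 4 control livers came from Rosa-mTmG mice and the 4 senescent livers from Trf2F/F;Rosa-mTmG mice, with tissue collected 6 to 7 weeks after infection by the study's methods. All 8 mice had received AAV8-Tbg-Cre, a virus that drives Cre from a hepatocyte promoter, so other liver cells kept *Terf2*. No liver library had the Trf2F/F genotype without the virus, so that genotype and TRF2 loss cannot be told apart in livers. In bulk RNA, fewer cells of a type and less RNA per cell cannot be told apart. The labels do not state the ages of the mice.

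Libraries held 15364450 to 20177401 reads in genes, so that 1 read was worth 0.0505 to 0.0661 CPM (the count scaled by library size and TMM factor within each tissue). A rise or fall in CPM is relative to the rest of a library, and amounts per cell or per mitochondrion were not measured. *Terf2* was at 37.7 to 39.2 CPM in control iMEFs and 0.215 to 0.305 in senescent iMEFs, and at 11.3 to 13.8 CPM in control livers and 2.84 to 4.91 in senescent livers. The 8 hepatocyte markers summed to 80455 to 107957 CPM in livers and to at most 0.401 CPM in iMEFs. The 8 fibroblast and stellate markers, among them the collagen genes, summed to 13332 to 14549 CPM in control iMEFs and to 2780 to 4039 CPM in senescent iMEFs. Of the 6 tested in iMEFs, 5 fell and *Dcn* rose, and their part in the iMEF results below was not tested. Over the 10 marker lists, the other calls in iMEFs were *Cd68*, *Kdr*, *Krt19* and *Fabp4* higher and *Krt7* and *Sox9* lower, and in livers 0 markers passed (edgeR), with 0 to 3 per list at an unadjusted p below 0.05. Senescent iMEF replicate 3 stood apart from the other senescent cultures, with a chi-square per degree of freedom of 24.7 and 29.8 against replicates 1 and 2, which were at 4.67 from each other.

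Levels were first compared between carriers in the controls, as CPM per kb of merged exon length. In control iMEFs the highest was *Slc25a5*, adenine nucleotide carrier 2, which exchanges ADP and ATP, at 266 ± 2.90 CPM per kb (SD, n = 3). It was followed by *Slc25a4*, adenine nucleotide carrier 1, at 136 ± 9.90, the phosphate carrier *Slc25a3* at 109 ± 1.56, the ATP-Mg/phosphate carrier *Slc25a24* at 64.0 ± 3.76, and the citrate carrier *Slc25a1* at 60.0 ± 5.55 CPM per kb (SD, n = 3). The values of *Slc25a24* and *Slc25a1* lay within their spread of each other. In control livers *Slc25a5* was again highest, at 232 ± 11.1 CPM per kb (SD, n = 4). The glutathione carrier *Slc25a39* followed at 155 ± 2.81, *Slc25a47*, a carrier known from liver, at 141 ± 52.2, *Slc25a1* at 117 ± 6.58 and *Slc25a15*, the ornithine carrier of the urea cycle, at 77.8 ± 8.22 CPM per kb (SD, n = 4). *Slc25a47* varied so widely between livers that its place between *Slc25a39* and *Slc25a1* was within its spread. The order depends on the division by length. In CPM, *Slc25a3* was above *Slc25a5* in control iMEFs, with means of 607 and 438. In control livers *Slc25a15*, *Slc25a39* and *Slc25a47* had means of 438, 426 and 421 CPM, against 381 for *Slc25a5*.

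The makeup of the family differed between the tissues, as a description only, since tissue was confounded with culture and preparation and the tables were scaled apart. One scaling over all 14 libraries raised the liver to iMEF ratio of the members by a median of 1.93 times, so only members beyond 5-fold under both scalings are named. Of the 38 members at 5 CPM or more in the controls of at least 1 tissue and with a read in both, 10 were higher in livers and 3 in iMEFs by that measure, and 9 changed sides with the scaling. The 3 higher in iMEFs were *Slc25a24*, *Slc25a4* and the pyrimidine nucleotide carrier *Slc25a36*, at 68.4, 41.6 and 14.1 times the liver level with each tissue scaled apart. Among the 10 higher in livers were *Slc25a47* at 130 times the iMEF level, *Slc25a23*, an ATP-Mg/phosphate carrier, at 42.6 times, the coenzyme A carrier *Slc25a42* at 28.7 times, and *Slc25a13* (citrin, the aspartate-glutamate carrier of liver) and *Slc25a15* at 15.4 and 15.1 times. The choline carrier *Slc25a48* and the 2-oxoadipate carrier *Slc25a21* had 1230 and 1163 reads in control livers and 1 read each in control iMEFs.

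**Figure D1:**
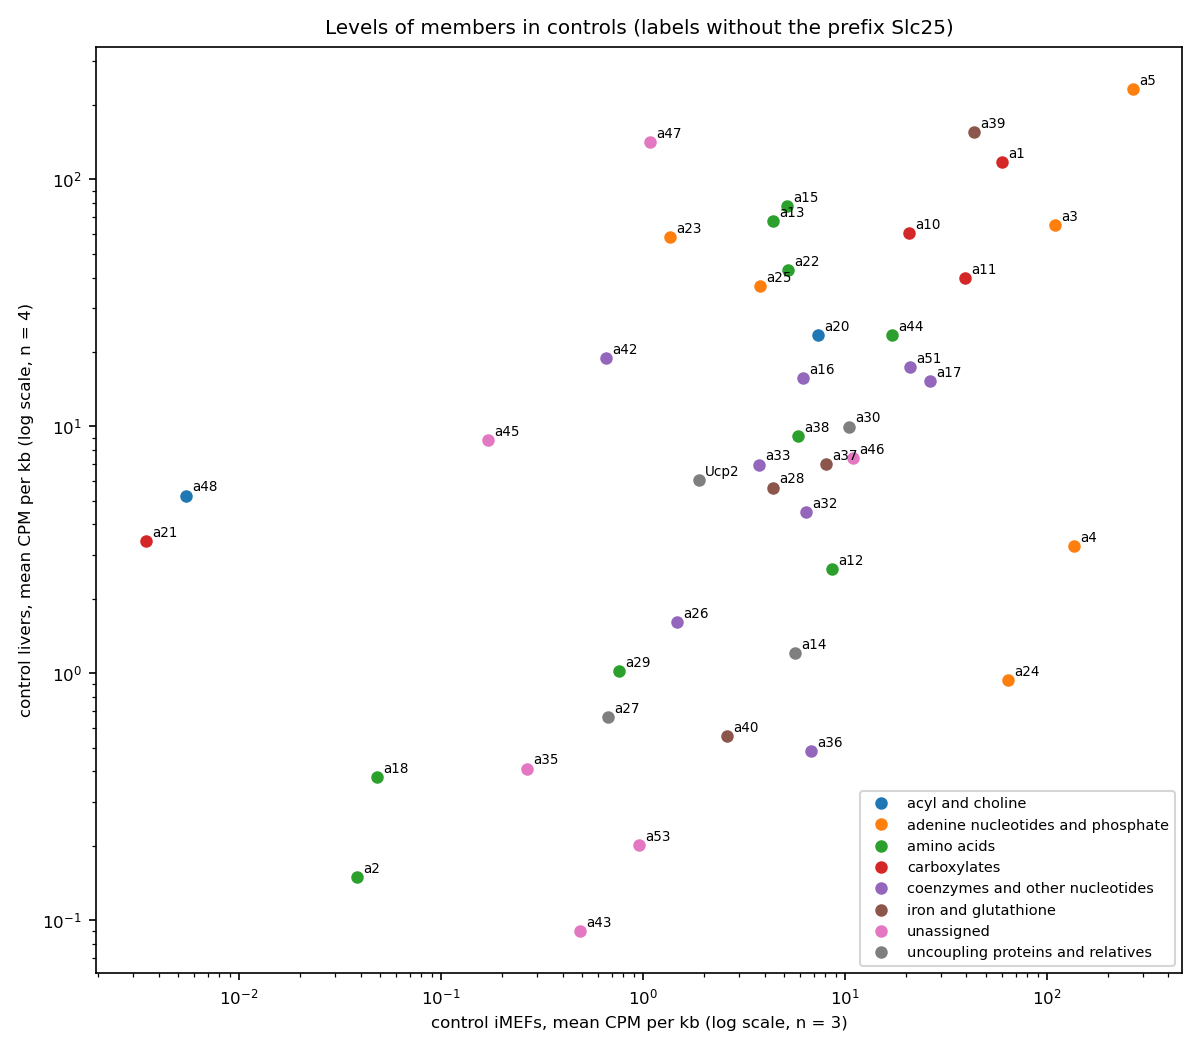
Mean level of members in control iMEFs (horizontal, n = 3) and control livers (vertical, n = 4) in CPM per kb, both on log axes, coloured by substrate class and labelled without the prefix Slc25. Slc25a5 is at the top right at 266 and 232 CPM per kb, Slc25a47 is at 141 in livers against 1.08 in iMEFs, and Slc25a24 is at 64.0 in iMEFs against 0.936 in livers.

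The next comparison asked which carriers differed between senescent and control iMEFs. *Ucp2*, the uncoupling protein found in many tissues, and *Slc25a1*, which exports citrate for lipid synthesis, fell, and so did *Slc25a53*, a carrier of unknown substrate, and *Slc25a12*, the aspartate-glutamate carrier 1. *Slc25a37* (mitoferrin 1, which imports iron for heme and iron-sulfur clusters) rose most, followed by *Slc25a40*, a glutathione carrier, *Slc25a42* and the pyrimidine nucleotide carrier *Slc25a33*. In all, 39 of the 50 members passed the filter on low counts. Senescent levels were higher for 11 and lower for 4, and 24 members missed an adjusted p of 0.05 (edgeR's quasi-likelihood test, Benjamini-Hochberg over all 13561 genes tested). The called share of the members was 38.5% and that of all genes was 39.8% (18.6% higher and 21.2% lower), so the family did not stand out in number. The members' median log2 fold change was 0.08 against 0.00 over all genes tested, and the median size of the change was 0.23 against 0.28. The remaining 11 members were at or near 0 reads or too low to be tested in iMEFs. Without senescent replicate 3 the counts were 13 higher and 5 lower. Without control replicate 1 or control replicate 2, 6 were higher, with 4 and 3 lower. The counts over all genes moved the same way, from 5400 of 13561 in the main fit to 5907 of 13823 without senescent replicate 3. They were 3979 of 13914 without control replicate 1 and 3792 of 13912 without control replicate 2.

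Promoter sequences are shown for members on which these results turn, the fall of *Ucp2* and *Slc25a1*, the rise of *Slc25a40* and *Slc25a33*, and the wide spread of *Slc25a47* between livers described further on. Each is 220 bases of RefSeq sequence on the GRCm38.p6 build, written 5′ to 3′ along the gene's strand, from 250 to 31 bases before the RefSeq start site. They lie at chr7:100493108-100493327 (plus strand) for *Ucp2*, chr16:17928250-17928469 (minus) for *Slc25a1*, chr5:8422588-8422807 (plus) for *Slc25a40*, chr4:149774298-149774517 (minus) for *Slc25a33* and chr12:108850879-108851098 (plus) for *Slc25a47*. Capitals mark any match to the motifs named after the sequences.
Ucp2: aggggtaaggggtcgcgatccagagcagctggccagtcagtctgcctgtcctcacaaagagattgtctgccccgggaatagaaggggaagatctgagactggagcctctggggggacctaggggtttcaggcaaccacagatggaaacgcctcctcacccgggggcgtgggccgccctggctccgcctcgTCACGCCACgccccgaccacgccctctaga
Slc25a1: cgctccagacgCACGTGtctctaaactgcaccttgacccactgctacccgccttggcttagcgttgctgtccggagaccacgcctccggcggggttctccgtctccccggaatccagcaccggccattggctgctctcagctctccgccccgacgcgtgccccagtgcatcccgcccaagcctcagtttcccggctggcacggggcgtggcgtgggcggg
Slc25a40: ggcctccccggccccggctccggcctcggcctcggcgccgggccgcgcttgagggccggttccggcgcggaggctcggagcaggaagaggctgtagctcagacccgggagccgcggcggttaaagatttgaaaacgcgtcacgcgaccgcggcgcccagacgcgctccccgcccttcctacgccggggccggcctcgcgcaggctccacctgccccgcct
Slc25a33: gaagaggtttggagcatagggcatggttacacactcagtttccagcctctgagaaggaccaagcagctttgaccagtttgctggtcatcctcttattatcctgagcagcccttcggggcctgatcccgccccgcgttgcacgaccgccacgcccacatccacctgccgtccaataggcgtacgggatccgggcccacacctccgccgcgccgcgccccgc
Slc25a47: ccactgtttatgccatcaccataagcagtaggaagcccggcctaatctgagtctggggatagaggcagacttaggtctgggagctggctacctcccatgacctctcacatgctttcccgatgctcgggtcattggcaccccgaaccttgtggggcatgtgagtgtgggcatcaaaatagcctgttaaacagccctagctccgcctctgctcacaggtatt
Of the 50 members, 39 matched a promoter entry, and *Slc25a37* did not. Both strands of the 220 bases were searched for the E-box CACGTG, the sterol element TCACNCCAC bound by SREBP factors, the cyclic AMP element TGACGTCA, the PPAR element, the NRF1 site and the p53 response element. For every motif, members were counted by gene and the background by promoter. These units differ, so no excess or lack among the members is read from the figures. The E-box was in 6 of the 39 members (*Slc25a1*, *Slc25a13*, *Slc25a14*, *Slc25a15*, *Slc25a31* and *Slc25a36*) and in 5.01% of 32817 promoters of this length. The sterol element was in *Ucp2* alone among the members and in 0.908% of all promoters, and the cyclic AMP element in *Slc25a25* and *Slc25a36* and in 1.14% of all. The PPAR, NRF1 and p53 elements matched no member and were in 0.0305%, 0.548% and 0.064% of all promoters. *Slc25a40*, *Slc25a33* and *Slc25a47* held none of the 6 motifs. A match describes letters in this window and is no evidence of binding.

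Among the uncoupling proteins, *Ucp2* (chr7:100493337-100502020) was at 12.4, 12.6 and 14.6 CPM in control iMEFs and at 4.35, 3.53 and 4.70 CPM in senescent iMEFs. Every senescent culture was below every control. The mean fell from 13.2 ± 1.24 (SD, n = 3) to 4.19 ± 0.600 CPM, and on the log2 scale the change was -1.65 ± 0.15 (SE, edgeR adjusted p = 4.68e-06). *Ucp1*, the heat-producing uncoupling protein of brown fat, had 0 reads in all 14 libraries, which allows up to 0.0274 CPM over the iMEF libraries and 0.0225 CPM over the liver libraries at 3 reads, for counting error only. *Ucp3*, known from muscle, had 5 reads in control iMEFs, 1 in senescent iMEFs, 2 in control livers and 0 in senescent livers, and was tested in neither tissue. Of the relatives of the uncoupling proteins, *Slc25a30* rose in iMEFs by 0.36 ± 0.09 on the log2 scale (SE, edgeR adjusted p = 0.00664). *Slc25a14* and *Slc25a27*, which are known from brain, had log2 fold changes of -0.09 and 0.63 and did not pass (edgeR adjusted p = 0.622 and 0.133). *Slc25a27* was at 6.60 CPM in senescent replicate 3, against 2.79 and 2.98 CPM in the other senescent cultures and 2.21 to 3.18 CPM in the controls.

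Iron and glutathione carriers came as paired genes, and in each pair 1 member was called and the other was not. That is 2 of 4 genes, or 50%, where 39.8% of all genes were called in iMEFs, so the count does not stand out. *Slc25a37* (chr14:69241848-69285112) was at 53.5, 44.1 and 48.8 CPM in control iMEFs and at 125, 108 and 202 CPM in senescent iMEFs. The groups did not overlap, and replicate 3 was far above the other 2 senescent cultures. Its log2 fold change was 1.57 ± 0.19 (SE, edgeR adjusted p = 3.64e-05), a 2.97-fold rise, and 1.27 without that culture. *Slc25a28* (mitoferrin 2) was at 16.6 ± 0.939 CPM in controls and 18.1 ± 2.52 CPM in senescent iMEFs (SD, n = 3), and its log2 fold change of 0.12 did not pass (edgeR adjusted p = 0.458). *Slc25a40* (chr5:8422850-8454797) was at 20.3, 22.0 and 23.5 CPM in controls and at 42.6, 40.1 and 46.4 CPM in senescent iMEFs. All 3 senescent cultures were above all controls, and the level rose 1.96-fold (log2 0.97 ± 0.10, SE, edgeR adjusted p = 9.96e-06). *Slc25a39*, the other glutathione carrier and the more abundant of the pair at 43.7 ± 0.637 against 2.62 ± 0.193 CPM per kb in control iMEFs (SD, n = 3), had a log2 fold change of 0.12 (edgeR adjusted p = 0.281). Whether the changes within each pair differ was not tested.

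Of the 9 carriers of coenzymes and other nucleotides, all were tested in iMEFs, 4 rose and 5 did not pass, a called share of 44.4% that is near the 39.8% of all genes. *Slc25a42* (chr8:70184340-70212305), which imports coenzyme A, was at 3.92, 3.99 and 3.93 CPM in controls and 7.41, 6.40 and 8.83 CPM in senescent iMEFs. The groups were well apart although the gene was low, with 225 and 397 reads in all. The rise was 1.91-fold (log2 0.93 ± 0.17, SE, edgeR adjusted p = 0.00094). *Slc25a33* (chr4:149744036-149774277) was at 7.68, 6.71 and 6.82 CPM in controls and 10.2, 12.98 and 11.2 CPM in senescent iMEFs, again without overlap, a 1.62-fold rise (log2 0.69 ± 0.14, SE, edgeR adjusted p = 0.00201). The second pyrimidine nucleotide carrier, *Slc25a36*, and *Slc25a17*, a carrier of coenzymes in peroxisomes, rose less, by 0.33 and 0.24 on the log2 scale (edgeR adjusted p = 0.0236 and 0.0253), calls lost in 4 and 7 of 12 alternative settings. The carriers for S-adenosylmethionine (*Slc25a26*), folate and flavin (*Slc25a32*) and NAD (*Slc25a51*), and *Slc25a16*, linked to coenzyme A, had log2 fold changes of -0.15 to 0.05 and did not pass.

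**Figure D2:**
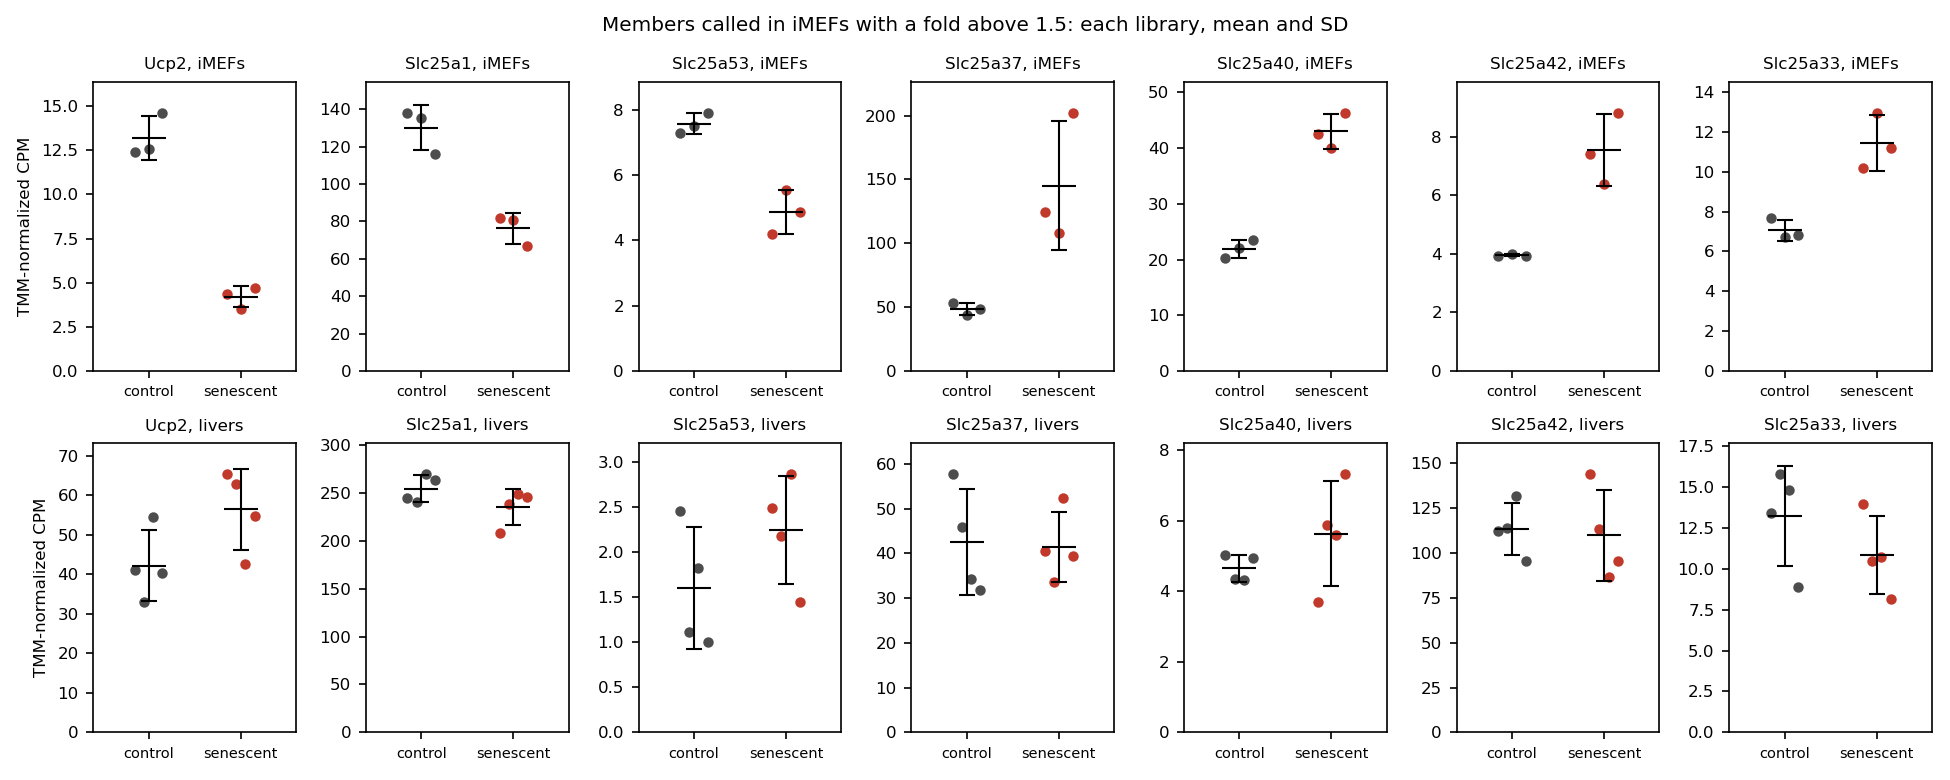
Level of 7 members in every library (points), with the group mean and SD (bars), in TMM-normalized CPM on axes that start at 0, for iMEFs (upper row, n = 3 per group) and livers (lower row, n = 4 per group). The 7 were chosen as called in these same iMEF libraries beyond 1.5-fold, so it is no separate result that their groups are apart there. Ucp2 is at 12.4 to 14.6 against 3.53 to 4.70 CPM in iMEFs. In livers the groups overlap in all 7 panels, and the share of all genes with overlapping liver groups was not counted.

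Among the 4 carboxylate carriers, *Slc25a1* (chr16:17925223-17928219) was at 138, 135 and 116 CPM in control iMEFs and at 81.7, 80.5 and 66.5 CPM in senescent iMEFs. The senescent values all lay below the controls. The level fell by 0.77 ± 0.10 on the log2 scale (SE, edgeR adjusted p = 7.57e-05), from a mean of 129.9 ± 12.02 to 76.2 ± 8.42 CPM (SD, n = 3 each). The dicarboxylate carrier *Slc25a10* and the oxoglutarate-malate carrier *Slc25a11* had log2 fold changes of -0.23 and -0.11 and did not pass (edgeR adjusted p = 0.0541 and 0.372), and *Slc25a21* was too low to test. *Slc25a10* passed with limma-voom (adjusted p = 0.0457) and without senescent replicate 1 (edgeR adjusted p = 0.0318). Of the amino acid carriers, 7 of 9 were tested. *Slc25a12* fell by 0.30 and *Slc25a13*, which also exchanges aspartate for glutamate, rose by 0.37 on the log2 scale (edgeR adjusted p = 0.0187 and 0.0495), the latter with overlapping groups. In control iMEFs *Slc25a12* was at 8.67 ± 0.262 and *Slc25a13* at 4.40 ± 0.431 CPM per kb, while in control livers they were at 2.64 ± 0.197 and 67.9 ± 5.78 CPM per kb (SD, n = 3 and n = 4). The call for *Slc25a13* was lost in 8 of 12 alternative settings. The other 5, for glutamate, ornithine, basic and branched-chain amino acids and glycine (*Slc25a22*, *Slc25a15*, *Slc25a29*, *Slc25a44* and *Slc25a38*), did not pass, with log2 fold changes of -0.70 to 0.25. The largest of these, -0.70 for *Slc25a29*, came from 113 and 64 reads.

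Of the adenine nucleotide carriers, *Slc25a5* and *Slc25a4* were the most abundant members in iMEFs per length, and neither passed the threshold. *Slc25a5* was at 437, 443 and 434 CPM in control iMEFs and 511, 555 and 465.9 CPM in senescent iMEFs. The senescent cultures were all higher, by 0.22 ± 0.09 on the log2 scale, and the change did not pass (SE, edgeR adjusted p = 0.0608). It passed with DESeq2 (adjusted p = 0.0225) and without senescent replicate 3 (edgeR adjusted p = 0.00165). *Slc25a4* was at 338, 327 and 293 CPM in controls and 308, 345 and 299 CPM in senescent iMEFs, which overlapped (log2 fold change -0.01, 95% confidence interval -0.20 to 0.18, edgeR adjusted p = 0.935), and its sign turned with RLE factors (0.0036). The third, *Slc25a31*, known from testis, had 3 reads in control iMEFs, 1 in control livers and 0 in the senescent libraries. The phosphate carrier *Slc25a3* and the ATP-Mg/phosphate carrier *Slc25a24* rose by 0.22 and 0.41 on the log2 scale (edgeR adjusted p = 0.0453 and 0.00208), and the call for *Slc25a3* was lost in 8 of 12 alternative settings. *Slc25a23* and *Slc25a25*, relatives of *Slc25a24*, had log2 fold changes of -0.19 and 0.21 and did not pass (edgeR adjusted p = 0.429 and 0.0734). The carnitine-acylcarnitine carrier *Slc25a20*, which brings fatty acids in for oxidation, had a log2 fold change of -0.23 (edgeR adjusted p = 0.0684).

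Of the 8 carriers without an assigned class, *Slc25a53* (chrX:136981116-137038302) was at 7.29, 7.52 and 7.92 CPM in control iMEFs and 4.19, 5.54 and 4.88 CPM in senescent iMEFs, without overlap. It fell by 0.64 ± 0.16 on the log2 scale (SE, edgeR adjusted p = 0.00668). *Slc25a46*, an outer membrane protein that affects mitochondrial shape, rose by 0.38 on the log2 scale (edgeR adjusted p = 0.0142). *Slc25a35*, *Slc25a43* and *Slc25a47* did not pass, and *Slc25a34*, *Slc25a45* and *Slc25a54* were not tested, at 3, 54 and 4 reads in all iMEF libraries. *Slc25a48* was also below the filter, with 1 read in control and 25 reads in senescent iMEFs, at 7, 16 and 2 reads in the 3 cultures. The ratio was 27.1, with a 95% counting interval of 4.44 to 1115 that covers counting error only, and without a filter on low counts its adjusted p was 0.00116 (edgeR). The 24 tested members that were not called had 95% confidence intervals between -1.45 and 1.32 on the log2 scale.

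**Figure D3:**
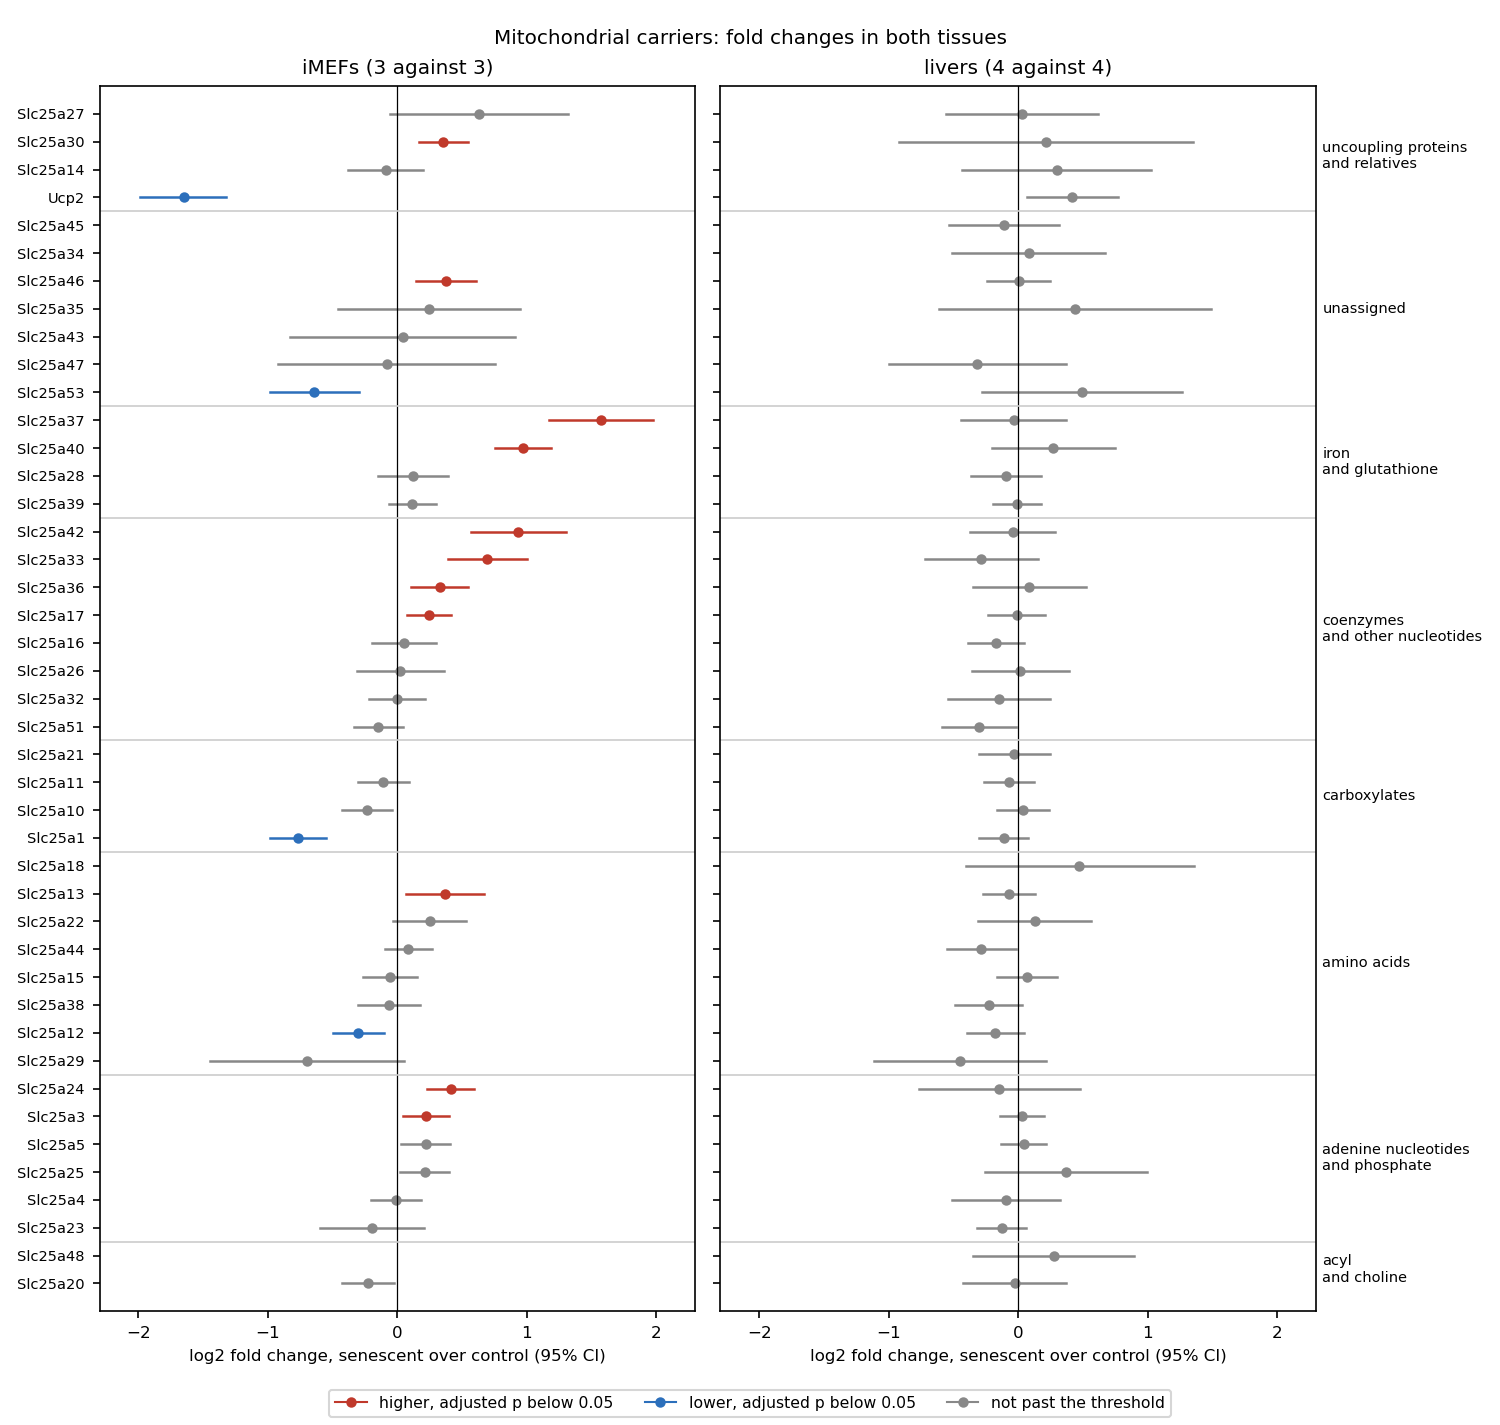
Log2 fold change of senescent over control (points) with its 95% confidence interval (lines) for tested members in iMEFs (left) and livers (right), grouped by substrate class. In iMEFs 11 members are higher (red) and 4 lower (blue), from Ucp2 at -1.65 to Slc25a37 at 1.57, and in livers all are grey, that is, not past the threshold.

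Genes that work with the carriers were counted in 8 lists, with the same fit and threshold. Their counts are to be read against the 39.8% of all genes called in iMEFs, 18.6% higher and 21.2% lower, and a list near that share does not stand out. In iMEFs, of 19 heme, iron-sulfur and iron genes, 2 were higher and 4 lower, and the transferrin receptor *Tfrc*, which takes up iron, had the largest change (log2 1.45 ± 0.11, SE, edgeR adjusted p = 1.13e-06). *Alas1*, the first enzyme of heme synthesis, rose by 0.25 and *Fech*, its last, fell by 0.36 on the log2 scale (edgeR adjusted p = 0.0366 and 0.00552). Of 12 glutathione genes 1 rose, *Gclc*, a subunit of the first enzyme of glutathione synthesis (log2 0.64, edgeR adjusted p = 3.22e-04), and 1 fell, the peroxidase *Gpx1* (-0.37, adjusted p = 0.0041). Of 16 partner enzymes of the malate-aspartate, citrate and glycerol phosphate shuttles, 6 rose and 5 fell. The NADP-linked isocitrate dehydrogenases *Idh1* and *Idh2* fell most, by 0.98 and 0.92 on the log2 scale (edgeR adjusted p = 2.76e-06 and 2.74e-06). Of 17 genes of the carnitine shuttle and fatty acid oxidation, 8 fell and 1 rose, with *Etfb*, an electron carrier, and *Acadm*, an acyl-CoA dehydrogenase, at -1.06 and -0.59 (edgeR adjusted p = 0.015 and 2.44e-04) and *Cpt1c* at 0.62 (adjusted p = 0.0144). *Etfb* was low and varied among the controls, at 2.68 to 6.57 CPM in control iMEFs and 1.82 to 2.44 CPM in senescent iMEFs.

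Of 12 tested PPAR targets and lipid sensing genes, 4 fell and 2 rose, among them the thioesterase *Acot1* at -1.40 and the receptor *Pparg* at 0.89 (edgeR adjusted p = 5.1e-04 and 9.83e-05). Of 22 coenzyme, folate and nucleotide genes, 5 rose and 3 fell, with the ribonucleotide reductase subunit *Rrm2b* at 0.56 and the methionine adenosyltransferase subunit *Mat2b* at -0.36 (edgeR adjusted p = 0.00112 and 0.0102). Of 6 urea cycle and ornithine genes 3 rose and 1 fell, with *Arg2*, a mitochondrial arginase, at 1.01 (edgeR adjusted p = 0.0327). *Arg2* was low, at 0.787 to 1.44 CPM in control iMEFs and 1.88 to 3.53 CPM in senescent iMEFs. Of 30 other transport proteins of the mitochondrial membranes 6 rose and 9 fell, with the calcium uniporter subunit *Micu3* at 0.91 and *Sfxn3*, a sideroflexin, at -0.89 (edgeR adjusted p = 1.09e-04 and 2.45e-06). The list medians lay between -0.18 and 0.35 against 0.00 over all genes tested. In livers 0 genes of any of the 8 lists passed the threshold, with 0 to 3 per list at an unadjusted p below 0.05 (edgeR).

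The same comparison in livers asked whether carriers differed after loss of TRF2 in hepatocytes. Of the 50 members, 43 were tested and 0 passed an adjusted p of 0.05 (edgeR), where 0.343% of all 14270 genes tested were called (0.308% higher and 0.035% lower). An unadjusted p below 0.05 was reached by 3 members (*Ucp2*, *Slc25a51* and *Slc25a44*), 6.98% of those tested against 7.54% of all genes, and DESeq2, limma-voom and every other setting also called 0. *Ucp2* was at 41.1, 33.1, 54.4 and 40.3 CPM in control livers and at 65.4, 62.8, 42.7 and 54.7 CPM in senescent livers. The groups overlapped, with senescent replicate 3 among the controls and control replicate 3 among the senescent livers. The log2 fold change was 0.42 ± 0.16 (SE, edgeR adjusted p = 0.565). *Ucp2* is known to be expressed in macrophages, and the 12 macrophage markers summed to 669, 367, 555 and 798 CPM in the controls and to 776, 803, 662 and 793 CPM in the senescent livers. Control replicate 2 was lowest among controls and senescent replicate 3 lowest among senescent livers, both in *Ucp2* and in this sum. At the upper end the orders differed, with control replicate 3 highest in *Ucp2* and control replicate 4 highest in the sum, and the part of the markers in the result was not tested.

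*Slc25a51*, the NAD carrier, was at 112, 101, 80.5 and 88.5 CPM in control livers and at 75.3, 76.0, 64.1 and 93.8 CPM in senescent livers. Only senescent replicate 4 reached into the control range. Its log2 fold change was -0.30 ± 0.13 and that of *Slc25a44*, which carries branched-chain amino acids, was -0.28 ± 0.12 (SE, edgeR adjusted p = 0.628 and 0.636). *Slc25a5*, the most abundant member per length though not in CPM, was at 408, 369, 370.2 and 378 CPM in control livers and 364, 409, 379 and 419 CPM in senescent livers. The groups overlapped, with a log2 fold change of 0.04 (95% confidence interval -0.14 to 0.22, edgeR adjusted p = 0.946). *Slc25a4*, which is low in liver, was at 8.53, 7.15, 6.63 and 8.38 CPM in controls and 5.38, 7.01, 6.75 and 9.66 CPM in senescent livers, again with overlap. Over the 43 tested members the median log2 fold change was -0.03 against 0.00 over all genes tested, and the 95% confidence intervals of 36 lay within 1 unit of 0 in both directions and those of 21 within 0.5. The share within 0.5 was 48.8%, so for the other members a change of that size was not excluded by the interval. The widest intervals belonged to members that were low or varied between animals, from -1.12 (*Slc25a29*) to 1.49 (*Slc25a35*). The 7 members not tested in livers were *Slc25a2*, *Slc25a31*, *Slc25a41*, *Slc25a43*, *Slc25a54*, *Ucp1* and *Ucp3*, which had 0 to 32 reads over the 8 libraries.

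Some carriers varied between livers of the same group far more than most. For the 35 members at 5 CPM or more, the SD within groups of log2(CPM + 0.5) had a median of 0.213, against 0.172 over 9985 genes of that level. The highest was that of *Slc25a30* at 1.09. It was at 39.5, 70.7, 56.2 and 15.9 CPM in control livers and at 104, 54.5, 39.2 and 13.01 CPM in senescent livers. Replicate 4 was lowest in both groups, and the highest and lowest senescent livers differed by 8.03 times. *Slc25a47* (SD 0.636) was at 409, 511, 558 and 207 CPM in controls and 481, 412, 278 and 183 CPM in senescent livers, with replicate 4 again lowest in both. *Slc25a25*, an ATP-Mg/phosphate carrier (SD 0.584), was at 369, 364, 304 and 128 CPM in controls and 356, 509, 381 and 259 CPM in senescent livers. It too was lowest in replicate 4 of each group. *Slc25a48* (SD 0.567) was at 20.01, 16.4, 16.4 and 17.9 CPM in controls and at 8.67, 19.2, 27.8 and 29.8 CPM in senescent livers, so its spread lay among the senescent animals and ran opposite to that of *Slc25a30*.

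**Figure D4:**
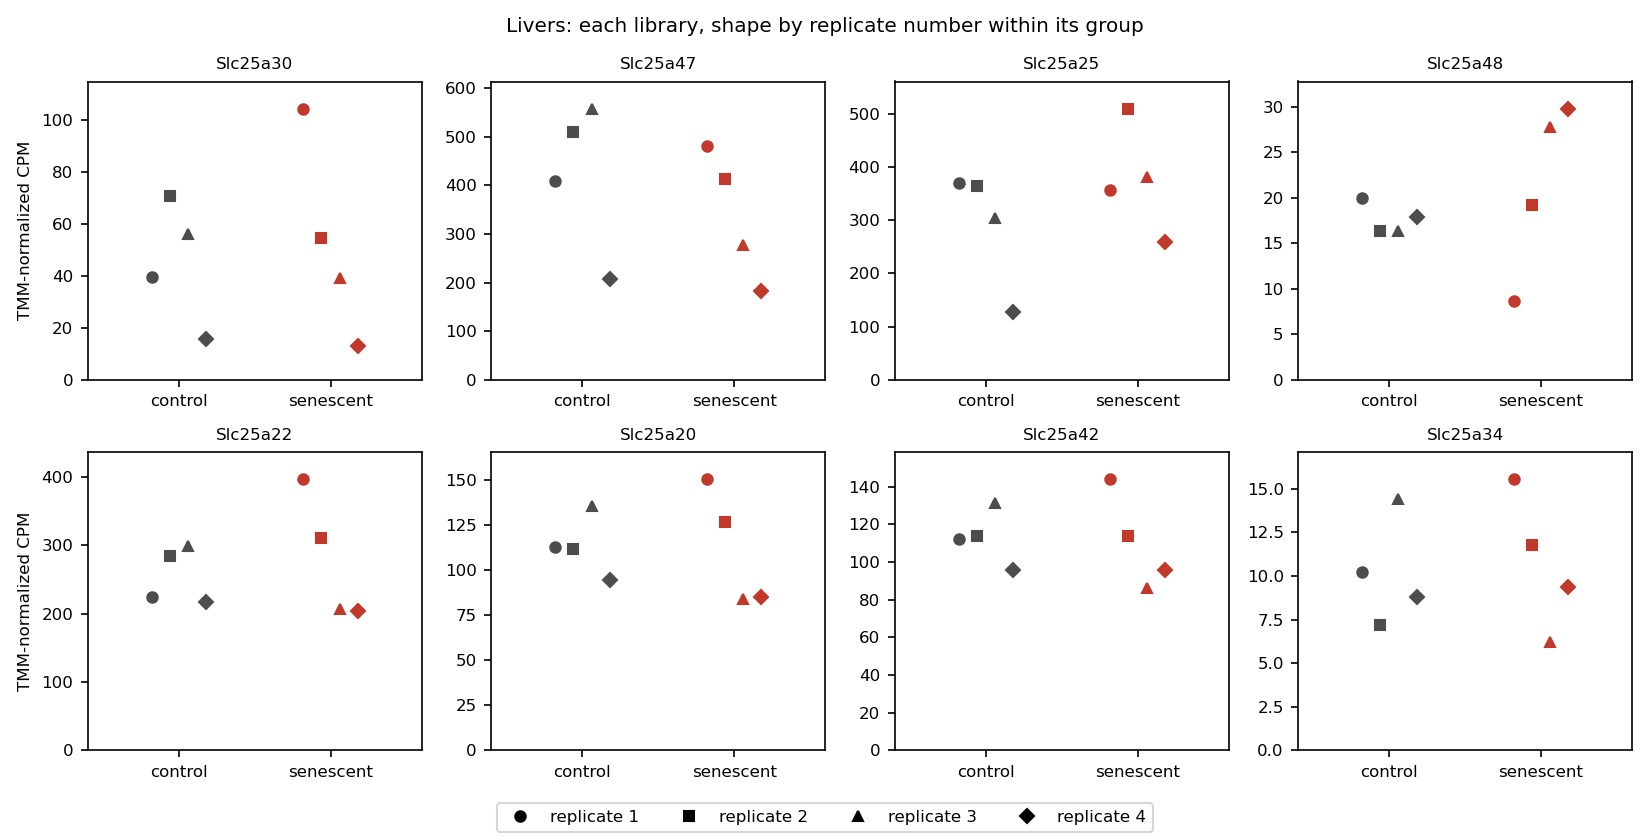
Level of 8 carriers in each liver library in TMM-normalized CPM, on axes that start at 0, for control (grey) and senescent (red) livers with the shape giving the replicate number within the group (the numbers were not taken to pair the animals). Replicate 4 is lowest in both groups for Slc25a30 (15.9 and 13.01 CPM), Slc25a47 (207 and 183) and Slc25a25 (128 and 259), and senescent replicate 1 is highest among senescent livers for Slc25a22, Slc25a20, Slc25a42 and Slc25a34.

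The libraries with extreme values were set beside genes known to follow the feeding state and the daily clock. Among the 35 members, 7 (*Slc25a13*, *Slc25a20*, *Slc25a22*, *Slc25a34*, *Slc25a42*, *Slc25a47* and *Ucp2*) were highest in control replicate 3 and in senescent replicate 1. That is 20% of them, where 8.31% of the 9985 genes of that level did the same, but these 2 livers were chosen after their values were seen, so nothing is read from the shares. Of the 17 PPAR targets and lipid sensing genes at that level, which respond to fasting, 14 were highest in these same 2 livers, among them the thioesterase *Acot1* at 112.5 CPM in control replicate 3 and 144.6 CPM in senescent replicate 1, against 14.7 to 52.3 and 17.1 to 58.8 CPM in the others of each group. *Slc25a20* followed the same order at its top, with 135 and 150.2 CPM in these 2 livers against 94.2 to 112 and 83.7 to 127 CPM in the others. Another 7 members (*Slc25a22*, *Slc25a25*, *Slc25a30*, *Slc25a32*, *Slc25a33*, *Slc25a46* and *Slc25a47*) were lowest in replicate 4 of both groups, 20% against 13.3% of the genes of that level, and 8 of the 17 PPAR targets and lipid sensing genes (47.1%) were lowest there too. The 2 livers numbered 4 were also chosen after their values were seen, so nothing is read from these shares either. *Dbp*, an output gene of the clock chosen after its values were seen, was at 17.2 and 25.9 CPM in these 2 replicates and at 0.752 to 7.06 CPM in the other 6 livers. A second clock gene, *Nr1d1*, was at 34.2, 22.8, 109 and 125 CPM in controls and 26.9, 13.8, 50.1 and 84.4 CPM in senescent livers. Replicate 4 was highest in each group here too, but control replicate 3 was above senescent replicate 4. The part of feeding state or time of collection in the liver comparison was not tested. Without the 2 livers numbered 4, a setting chosen after seeing the data, 0 members were called and *Ucp2* had a log2 fold change of 0.41 (edgeR adjusted p = 0.662).

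Last, the changes in the 2 tissues were compared in 1 fit over all 14 libraries, as the liver log2 fold change less the iMEF log2 fold change. Of the 38 members tested in both tissues, 6 were called, 2 with a positive and 4 with a negative difference (15.8% of members, edgeR adjusted p below 0.05), against 17.1% of all 11693 genes tested (9.69% positive and 7.41% negative). *Ucp2* differed most, by 2.07 ± 0.25 (SE, edgeR adjusted p = 2.75e-05). It fell in iMEFs, and in livers it was at 42.2 ± 8.90 CPM in controls and 56.4 ± 10.2 CPM in senescent livers (SD, n = 4 each), which did not pass. For *Slc25a37* the difference was -1.60 ± 0.29 (SE, edgeR adjusted p = 0.0013), with liver values of 57.7, 45.9, 34.3 and 31.9 CPM in controls and 40.5, 33.6, 52.3 and 39.5 CPM in senescent livers, which overlapped. *Slc25a42* differed by -0.98 ± 0.24 and *Slc25a33* by -0.98 ± 0.28 (SE, edgeR adjusted p = 0.00989 and 0.0212). The first call was lost with limma-voom (adjusted p = 0.0682) and the second in 3 of 20 alternative settings. In livers, *Slc25a42* was at 112, 114, 131 and 95.7 CPM in controls and 144, 114, 86.4 and 95.7 CPM in senescent livers, and *Slc25a33* at 13.4, 15.8, 14.8 and 8.88 against 13.9, 10.4, 10.7 and 8.15 CPM, both with overlap.

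*Slc25a1* differed by 0.65 ± 0.14 (SE, edgeR adjusted p = 0.00429), with 244, 239.9, 269 and 263 CPM in control livers and 208, 238, 249 and 245 CPM in senescent livers, which overlapped. *Slc25a40* differed by -0.70 ± 0.24 (SE, edgeR adjusted p = 0.0493), a call lost in 17 of 20 alternative settings. It was low in livers, at 5.02, 4.34, 4.32 and 4.94 CPM in controls and 3.70, 5.88, 5.61 and 7.32 CPM in senescent livers, which overlapped. *Slc25a53*, called in iMEFs, was at 2.45, 1.11, 1.82 and 0.999 CPM in control livers and 2.49, 2.18, 2.87 and 1.45 CPM in senescent livers, which overlapped, and its difference of 1.13 ± 0.39 did not pass (SE, edgeR adjusted p = 0.0557), but did in 5 of 20 alternative settings, with the lowest value without control liver replicate 1 (edgeR adjusted p = 0.0174). For the other 31 members tested in both tissues no difference was called, which does not show that the tissues responded alike. Livers hold cells that kept *Terf2*, so the size of a difference cannot be told apart from the share of cells that lost it.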

How the data were processed

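RNA-seq libraries from 3 control and 3 senescent iMEF cultures and from 4 control and 4 senescent livers were used. The authors deposited raw counts of reads per gene, 1 table per tissue with 54532 genes. The submitters' processing notes name the mm10 build, STAR and featureCounts without versions, and the strand setting is not given in the sources used here. *Ucp2* shares 305 bases of exon with *Dnajb13* on the other strand, which was at most 1.77 CPM in any library. Normalized tables were not used, and 0 columns of per-sample counts were left out. Replicates are called biological in the study's methods.

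Each tissue was fitted with edgeR 4.0.16 in R 4.3.3 (filterByExpr, TMM factors, quasi-likelihood test, Benjamini-Hochberg adjustment, threshold 0.05), and the difference between tissues in 1 fit over 14 libraries. Lengths and coordinates are from GENCODE M21 (GRCm38), in which all 50 members were found under the same symbol. Promoters are RefSeq sequences. The members, the gene lists and the rule for named genes were chosen with earlier results of these data known. The rule gives every library's value for members called in livers or in the difference between tissues, for those called in iMEFs beyond 1.5-fold, and for *Ucp1* to *Ucp3*, *Slc25a4*, *Slc25a5* and *Slc25a31*, and at most 3 called genes per list and direction. Markers of cell types in 10 lists were also counted. Alternatives were DESeq2 1.42.0, limma-voom (limma 3.58.1), RLE factors, no filter on low counts, a replicate block, a threshold of 0.01 and leaving out libraries. The fits were also run on simulated counts with the same spread for every gene, which does not cover genes that varied widely between livers. Values of 1 member and of some list genes are not reported here, also not in figures, but stay in the counts. Tables were handled with Python 3.11.15, pandas 2.3.3 and scipy 1.17.1, and figures drawn with matplotlib 3.10.9.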

Additional observations from a re-analysis of the deposited data

Results flagged for a closer look

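For 6 members the change in livers differed from that in iMEFs by a test of the difference itself, liver less iMEF log2 fold change in 1 edgeR fit over 14 libraries. The differences were 2.07 for *Ucp2* and 0.65 for *Slc25a1*, and -1.60 for *Slc25a37*, -0.98 for *Slc25a33*, -0.98 for *Slc25a42* and -0.70 for *Slc25a40* (edgeR adjusted p = 2.75e-05, 0.00429, 0.0013, 0.0212, 0.00989 and 0.0493). The 6 are 15.8% of the 38 members tested in both tissues, against 17.1% of all genes tested, so the count does not stand out. The call for *Slc25a40* was lost in 17 of 20 alternative settings, that for *Slc25a33* in 3 and that for *Slc25a42* in 1.

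One library stood far from the other 3 of its group for the glutamate carrier *Slc25a18*, in both liver groups. Control replicate 3 was at 1.09 CPM against 0.555 to 0.645 CPM in the others, and senescent replicate 2 was at 1.59 CPM against 0.758 to 0.892 CPM. The gene had 50 reads in control and 64 in senescent livers. These were 2 of the 86 groups of 4 libraries examined, and chance alone flags about 1 in 20 groups.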

How the results depend on the processing

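Of the 15 members called in iMEFs, 9 were called in all 12 alternative settings, *Ucp2*, *Slc25a1*, *Slc25a24*, *Slc25a30*, *Slc25a33*, *Slc25a37*, *Slc25a40*, *Slc25a42* and *Slc25a53*. *Slc25a3* and *Slc25a13* lost the call in 8 settings each, *Slc25a17* in 7, *Slc25a36* in 4, *Slc25a46* in 3 and *Slc25a12* in 2, while *Slc25a5* and *Slc25a10* gained one in 2 each. The count of higher members was 11, 6 at a threshold of 0.01, and 6 to 13 when 1 library was left out, and that of lower members was 3 to 5. Over all genes tested in iMEFs, 3792 to 5907 were called with 1 library left out, against 5400 in the main fit. In livers the count of called members was 0 in every setting. For the difference between tissues, *Ucp2*, *Slc25a1* and *Slc25a37* were called in all 20 settings. Negative differences numbered 4, 2 at a threshold of 0.01, and 2 to 5 with 1 library left out, where they were 2 without control iMEF replicate 2 or senescent iMEF replicate 2. Positive ones numbered 2 to 3. Over all genes tested, 1278 to 2161 differences were called with 1 library left out, against 2000 in the main fit. Reversals were confined to changes that did not pass. *Slc25a4* in iMEFs (-0.01) was at 0.0036 with DESeq2 and 0.0036 with RLE factors, and at -0.0785 to 0.0432 with 1 library left out. In livers, leaving out 1 library moved *Slc25a37* between -0.16 and 0.15, *Slc25a42* between -0.20 and 0.0575 and *Slc25a4* between -0.27 and 0.0255. Without TMM factors, *Slc25a5* in control iMEFs was at 261 and *Slc25a3* at 108 CPM per kb, beyond 1 SD of the main values, and the other 8 levels were within it. The deposited tables hold no gene length, so the alternative of another length was not run. The cause of these shifts was not tested.

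With the replicate number as a block, 8 members were higher and 4 lower in iMEFs, 0 passed in livers, and the difference between tissues had 3 positive and 3 negative calls. Over all genes that setting called 4696 in iMEFs, 42 in livers and 1842 in the difference, against 5400, 49 and 2000 in the main fits. Deviations of same-numbered libraries correlated at -0.17 to -0.01 in iMEFs and -0.08 to 0.24 in livers, where the livers numbered 4 had the highest value of all liver pairs. Not every pair was above 0.1, so the numbers were not taken to pair the samples. Members under about 1 CPM rest on few reads, which limits what could be detected in them to large changes.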

Other observations

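In all, 5 pairs of members lie within 50000 bases of each other on the mouse genome (GRCm38). *Ucp3* and *Ucp2* are 6904 bases apart on chromosome 7, and the first was at or near 0 reads where the second was at 3.53 to 65.4 CPM. *Slc25a54* and *Slc25a24* are 6461 bases apart on chromosome 3, with 4 and 27838 reads in the iMEF libraries. *Slc25a41* and *Slc25a23* are 2056 bases apart on chromosome 17, with 0 and 39525 reads in the liver libraries. *Slc25a43* and *Slc25a5* are 18448 bases apart on chromosome X, and the first was at most 1.34 CPM in any library. *Slc25a29* and *Slc25a47* begin 162 bases apart on opposite strands of chromosome 12 as annotated, although the RefSeq start site of *Slc25a47* is at base 108851129, and in control livers they were at 1.02 and 141 CPM per kb.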
